A study of Mus musculus with 6 samples.

Results

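Fgl2, Stc1, Ccdc3, Fam180a and Pard6b are genes whose transcripts went from few or no reads to a clear signal when fetal testicular interstitial cells met the Smoothened agonist SAG, and Stc2, the paralog of Stc1, is set beside them for contrast. These 6 genes were chosen by symbol from the 24413 gene rows of the table because of their values in the 2 groups compared here. Their own difference between the groups is therefore given as a description, without a test. All 6 had a mean signal of at least 1 over the 6 libraries and so were among the 12550 genes tested.

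The cells, called W-EGFP by the study, are testicular interstitial cells of FLE-EGFP mice at E16.5, in which an enhancer active in fetal Leydig cells drives the fluorescent protein EGFP, and their RNA was sequenced in bulk. Of the 6 libraries, each from 10000 cells, 3 came from cells given SAG at 0.5 µM and 3 from cells given only the vehicle DMSO, for 1 hour in both groups according to the labels. Both groups share the transgene and the stage, and the column names of both carry the element "siCnt", which the sample labels do not explain. The name of the deposited data carries "siRNA", and the labels do not say whether the cells of both groups received a control siRNA. The labels do not say whether the replicates came from separate animals or cultures, so the p-values cover the spread between these libraries, which may be technical. The deposited signal is a read count divided by library size and a scaling factor, near CPM, and whole reads could be recovered from it.

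Hedgehog proteins relieve Smoothened of its inhibition by the receptor Patched, and Smoothened then activates the GLI transcription factors at the primary cilium. In the fetal testis the ligand comes from Sertoli cells and acts on interstitial cells, among them the precursors of fetal Leydig cells. Several of the 6 genes encode proteins that leave the cell. Fgl2 is a member of the fibrinogen-related family with a membrane form that cleaves prothrombin and a secreted form that restrains immune cells. Stanniocalcins, encoded by Stc1 and Stc2, are secreted glycoproteins first known as calcium-regulating hormones of fish, and both block the metalloproteinase PAPP-A, which frees insulin-like growth factors by cutting their binding proteins. Ccdc3 encodes a secreted protein of fat and endothelial cells, Fam180a is little studied, and Pard6b encodes an adaptor that joins the GTPase Cdc42 to atypical protein kinase C and Par3 in the polarity complex of animal cells.

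The stretches just upstream of the transcription start were compared because 5 of these genes were higher in the same libraries. RefSeq promoter windows on GRCm38.p6 were at hand for 5 of the 6 genes, Fgl2, Stc2, Ccdc3, Fam180a and Pard6b, and the 250 bases before the start were searched on both strands. The window of Fgl2 (chr5:21372423-21372672, plus strand) and that of Fam180a (chr6:35326142-35326391, minus strand) are shown because they were the only ones of the 5 to hold the AP-1 motif TGANTCA, and that of Ccdc3 (chr2:5137526-5137775, plus strand) is shown because that gene had no read in DMSO. Capitals mark matches to TGANTCA and, in Fgl2, also to the C/EBP-ATF motif TGATGNAA.
Fgl2: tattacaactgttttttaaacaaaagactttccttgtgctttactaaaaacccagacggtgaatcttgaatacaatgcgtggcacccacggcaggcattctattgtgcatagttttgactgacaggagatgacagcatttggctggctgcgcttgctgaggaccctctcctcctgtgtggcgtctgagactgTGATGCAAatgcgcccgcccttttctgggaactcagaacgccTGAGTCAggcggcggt
Fam180a: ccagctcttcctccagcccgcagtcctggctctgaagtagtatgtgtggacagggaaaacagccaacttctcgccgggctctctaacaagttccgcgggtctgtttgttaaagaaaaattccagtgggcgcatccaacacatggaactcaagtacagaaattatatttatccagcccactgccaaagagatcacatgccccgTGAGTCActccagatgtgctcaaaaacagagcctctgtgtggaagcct
Ccdc3: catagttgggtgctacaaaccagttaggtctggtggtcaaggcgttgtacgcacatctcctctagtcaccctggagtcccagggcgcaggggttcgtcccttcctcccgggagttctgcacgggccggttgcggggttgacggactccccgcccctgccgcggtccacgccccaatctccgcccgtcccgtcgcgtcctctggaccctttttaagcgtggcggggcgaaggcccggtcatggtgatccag
In Fgl2 the AP-1 match lies at -16 to -10 and the C/EBP-ATF match at -58 to -51, counted from the RefSeq start with -1 as the last base before it. GENCODE starts Fgl2 31 bases further upstream, so by that model the AP-1 match lies inside the transcribed part. In Fam180a the AP-1 match lies at -48 to -42.

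The GLI motif GACCACCCA was in none of the 5 windows, neither exactly nor with 1 mismatch, and the share of all 32851 windows of the same length that hold it was 0.225% exactly and 5.79% with 1 mismatch. TGANTCA was in 6.75% of all windows and TGATGNAA in 3.45%. Of the other motifs searched, the hypoxia response core ACGTG was in the Pard6b window, where matches on the 2 strands overlap at -72 to -67, and in 16.6% of all windows. TATAAA (12.4% of all windows) and TGACGTCA (1.55%) were in none of the 5. The windows also differ in base composition: G and C made up 77.6% of the bases in Pard6b, 65.2% in Ccdc3, 64.4% in Stc2, 50.4% in Fam180a and 49.6% in Fgl2, against a median of 52.4% over all windows. A match is a description of the letters in these windows, and the motifs were chosen with the members' values known.

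Fgl2 went from a trace to a clear signal. Its signal was 0.663, 2.54 and 3.21 in DMSO replicates 1 to 3 and 53.6, 52.3 and 74.9 in SAG replicates 1 to 3. The groups were far apart: the lowest SAG library was 16.3 times the highest DMSO library. The means were 2.14 ± 1.32 in DMSO and 60.3 ± 12.7 with SAG (SD, n = 3), a ratio of 28.2. These values rest on 128 reads in the 3 DMSO libraries and 1565 reads in the 3 SAG libraries. Fgl2 spans chromosome 5 from 21372642 to 21378374 on the plus strand of GRCm38 with 3788 exonic bases, and lies within an intron of Ccdc146, which is on the other strand. Ccdc146 itself had 0 reads in DMSO and 5 with SAG.

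Stc1 was far higher with SAG, and the groups of its paralog Stc2 overlapped. For Stc1, the DMSO signal was 0.414, 0.0462 and 1.86 in replicates 1 to 3, counts of 10, 1 and 33. It was 33.6, 32.2 and 18.4 in SAG replicates 1 to 3. Every SAG library was above every DMSO library, and the lowest SAG value was 9.87 times the highest DMSO value. The ratio of means was 36.3 and depended on DMSO replicate 3: without that library it was 122. Stc2 was at 6.63, 10.2 and 8.40 in DMSO and 7.25, 9.43 and 5.78 with SAG, so its groups overlapped. Its means were 8.40 ± 1.77 and 7.49 ± 1.84 (SD, n = 3), a ratio of 0.891, and the difference on the log2(signal + 1) scale was -0.15 with a standard error of 0.21. Per kb of exon, Stc1 made up 9.72% ± 10.7 of the stanniocalcin signal in DMSO and 81.9% ± 2.87 with SAG, and Stc2 the rest. The summed stanniocalcin signal per kb went from 1.81 ± 0.374 to 8.13 ± 2.29, while the part of Stc2 was 1.62 ± 0.342 and 1.45 ± 0.355. Stc1 is on chromosome 14 from 69029238 to 69041804 (plus strand) with its first bases under the antisense gene Gm41192, not analysed here, and Stc2 is on chromosome 11 from 31357307 to 31370074 (minus strand).

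Ccdc3 had 0 reads in each of the 3 DMSO libraries and 70, 118 and 154 reads in SAG replicates 1 to 3. As signal this is 7.69, 12.5 and 19.8 with SAG, with 95% Poisson intervals of 5.99 to 9.71, 10.3 to 15.0 and 16.8 to 23.2, which cover counting error only because PCR copies are not independent molecules. None of these intervals meets another, so the 3 SAG libraries differ by more than counting error. Set against a floor of 3 reads over the DMSO group, a signal of 0.0472, the SAG mean of 13.3 ± 6.09 (SD, n = 3) was at least 282-fold higher, and at least 214-fold higher without SAG replicate 3. Over all gene rows, 7813 had no read in DMSO, 9 of these reached a mean of 1 with SAG, and Ccdc3 had the highest SAG mean among them. The next highest, named after their values were seen, were the adrenal steroid enzyme gene Cyp21a1, with 2.64, 1.80 and 35.3 in SAG replicates 1 to 3, and Myoc, which encodes the secreted protein myocilin, with 5.60, 7.42 and 6.04. Ccdc3 spans chromosome 2 from 5137776 to 5230878 (plus strand). The noncoding gene Gm26776 on the other strand and the pseudogene Gm13198 overlap it and were not analysed here.

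Fam180a was at 0.704, 1.29 and 2.43 in DMSO replicates 1 to 3 and at 29.7, 34.6 and 43.4 in SAG replicates 1 to 3. No library of one group came near the other, with the lowest SAG value 12.2 times the highest DMSO value. The means were 1.47 ± 0.875 and 35.9 ± 6.96 (SD, n = 3), a ratio of 24.4. It lies on chromosome 6 from 35312668 to 35326141 (minus strand) and has the shortest exonic length of the 6 genes, 1606 bases. Per kb of exon it was therefore the highest of the 6 with SAG, at 22.4 ± 4.34, before Fgl2 (15.9 ± 3.34), Pard6b (10.1 ± 2.94), Stc1 (6.69 ± 2.01), Ccdc3 (4.99 ± 2.28) and Stc2 (1.45 ± 0.355). Within a library, each gene was above the next in that order in 3 of 3 SAG libraries, except that Stc1 was above Ccdc3 in 2 of 3. The ranges over libraries overlapped between Fam180a and Fgl2, between Pard6b and Stc1 and between Stc1 and Ccdc3. In DMSO the per kb order was led by Stc2 (1.62 ± 0.342), followed by Fam180a (0.918 ± 0.545), Pard6b (0.650 ± 0.485), Fgl2 (0.565 ± 0.349) and Stc1 (0.184 ± 0.229), with Ccdc3 at 0.

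Pard6b was at 4.10, 1.06 and 1.47 in DMSO replicates 1 to 3 and at 38.3, 41.7 and 23.0 in SAG replicates 1 to 3. The gap was the narrowest of the 4 genes with DMSO reads and no overlap: the lowest SAG value was 5.61 times the highest DMSO value. The means were 2.21 ± 1.65 and 34.4 ± 9.99 (SD, n = 3), a ratio of 15.5 that became 27.2 without DMSO replicate 1. It spans chromosome 2 from 168081004 to 168101203 (plus strand).

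**Figure D1:**
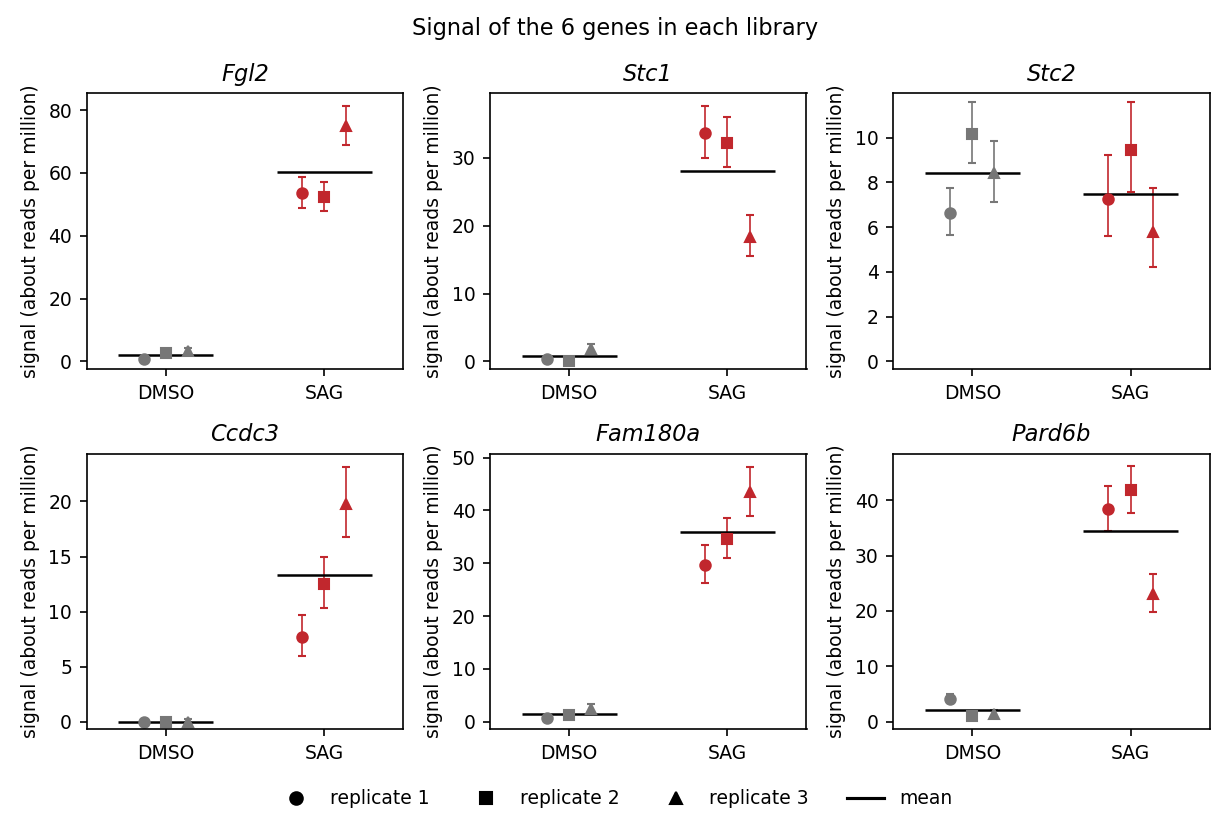
Signal (near CPM, linear axes that differ between panels) of the 6 genes in DMSO and SAG libraries. Symbols are replicates with 95% Poisson counting intervals and lines are group means. For Fgl2, Stc1, Ccdc3, Fam180a and Pard6b all 3 SAG libraries lie above all 3 DMSO libraries, while the groups of Stc2 overlap.

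In all, 5 of the 6 genes had every SAG library above every DMSO library, which was also so for 21.2% of all tested genes (48.0% had no overlap in either direction); the members were chosen for this difference, so the count supports nothing. As log2(signal + 1), a scale that compresses changes at low levels, the differences (SAG minus DMSO) were 4.37 for Fgl2, 4.12 for Stc1, 3.94 for Fam180a, 3.75 for Ccdc3 and 3.53 for Pard6b. These ranked 2, 3, 5, 7 and 9 among the 12550 tested genes, and Stc2 ranked 7686. With cut-offs chosen after the values were seen, 36 genes of the table had a DMSO mean under 3 and a SAG mean of at least 10, these 5 members among them, and 3 genes went the opposite way. Leaving out 1 library at a time gave 35 to 39 genes in the first class, always with the 5 members. The second class had 3 to 8 genes, with 8 without SAG replicate 2 and 5 without SAG replicate 1.

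Library depth and composition differed between the groups. Total reads were 18486396 to 25491259 in DMSO and 7694479 to 8804335 with SAG. Synthetic spike-in reads were 0 in each DMSO library and 54 to 1205 with SAG. Both thus split by group, and any effect of how the libraries were prepared cannot be told apart from that of SAG. SAG replicate 3 stood apart in ribosomal RNA reads (1.67% on Rn45s, against 0.326% to 0.360% in the other libraries). The summed signal of 4 adrenal cortex markers was 1.86 to 2.43 in DMSO and 7.80, 4.45 and 73.2 in SAG replicates 1 to 3, with Cyp21a1 and Akr1b7 called higher. Of 10 interstitial and fetal Leydig markers 8 were tested and 5 called higher, with a summed signal of 433 to 442 in DMSO and 919 to 1143 with SAG. The Leydig cell gene Insl3 was near 0, with a mean signal of 0.621 in DMSO (43 reads) and 0.121 with SAG (3 reads). So was Cyp17a1, at 0.158 in DMSO (11 reads) and 0 with SAG. The 7 smooth muscle markers were all called lower, with a summed signal of 20897 to 21839 in DMSO and 13169 to 14484 with SAG. Of all tested genes 12.9% were called higher and 16.6% lower (limma, Benjamini-Hochberg adjusted p under 0.05). In bulk samples more cells of a type and more RNA per cell cannot be told apart.

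Markers of other cells known to express these genes had summed signals that overlapped between the groups, except the endothelial sum, whose direction rested on Flt1. Of 10 endothelial markers 5 were tested and 1, Flt1, was called lower by limma, where 16.6% of all tested genes were. The summed signal was 125 to 130 in DMSO and 71.7 to 106 with SAG, and Cldn5 was at 0 reads throughout. Without Flt1, a sum chosen after the data were seen, it was 35.2 to 41.8 in DMSO and 38.9 to 53.8 with SAG. Most of the sum without Flt1 was Cdh5, the cadherin of endothelial junctions, with means of 27.8 of 38.4 in DMSO and 38.6 of 48.5 with SAG. Cdh5 was at 25.1, 26.9 and 31.2 in DMSO and 43.8, 43.6 and 28.3 with SAG and was not called (limma, adjusted p = 0.0930). Emcn went the other way, at 3.31 ± 0.583 and 2.02 ± 0.307, and was not called (limma, adjusted p = 0.0899). Kdr (2.71 ± 0.267 and 3.01 ± 0.182) and Egfl7 (3.42 ± 0.239 and 3.62 ± 0.115) were not called either. Pecam1, under the filter, was at 0.518 ± 0.132 in DMSO and 0.324 ± 0.321 with SAG, from 33 and 8 reads. The part of endothelial cells in the values of the 6 genes was not tested. The summed signal of 11 macrophage markers was 2.32 to 3.33 in DMSO and 1.17 to 3.62 with SAG, with C1qc, Fcgr1 and Fcgr3 at 0 reads in all libraries. The 6 T cell markers summed to 0.508 to 1.02 and 0.385 to 1.70, with Cd3d, Cd3g and Cd8a at 0 reads. The 5 adipocyte markers summed to 0.0828 to 1.07 and 0.220 to 0.642, with Adipoq and Cidec at 0 reads. Of the macrophage, T cell and adipocyte markers only Csf1r, a macrophage marker, passed the filter. With so few reads, the overlap of these 3 sums cannot show whether such cells changed.

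The genes differed in how they varied between the SAG libraries. Fgl2, Fam180a and Ccdc3 were highest in SAG replicate 3, by 1.41 times (95% counting interval 1.27 to 1.57), 1.35 times (1.18 to 1.54) and 1.95 times (1.57 to 2.43) the level of SAG replicates 1 and 2 pooled. Stc1 and Pard6b were lowest there, at 0.558 (0.462 to 0.671) and 0.574 (0.485 to 0.676) of that level. Stc2 was at 0.691 (0.485 to 0.969). Each of these intervals excludes 1, so the library differed from the other SAG libraries in both directions by more than counting error. Over all tested genes the ratio of SAG replicate 3 to the mean of replicates 1 and 2 ran from 0.526 (5th percentile) to 1.77 (95th percentile), so Ccdc3 lay outside that range and the others inside. The adrenal markers given above move with SAG replicate 3. Other genes did too, in SAG replicates 1 to 3: Star (11.97, 11.23 and 50.73), Cyp11a1 (7.25, 5.61 and 33.9) and Hsd3b1 (3.73, 2.01 and 30.8). These belong to the interstitial and fetal Leydig list, of which Nr5a1, Pdgfra and Nr2f2 were instead highest in SAG replicate 2. Xist, with no read in DMSO, was at 0.1098, 0.2119 and 3.596. The part of the cells behind these markers in the values of the 6 genes was not tested. Without that library the SAG to DMSO ratios were 24.8 for Fgl2, 42.5 for Stc1, 21.8 for Fam180a and 18.1 for Pard6b.

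**Figure D2:**
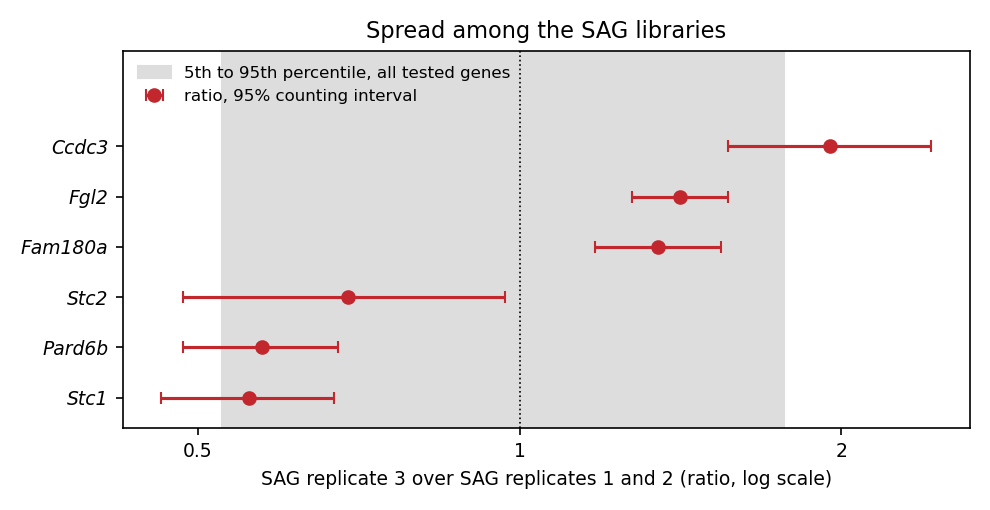
Ratio of the signal in SAG replicate 3 to SAG replicates 1 and 2 pooled, on a log axis, for each gene with its 95% counting interval. The grey band spans 0.526 to 1.77, the 5th to 95th percentile of all tested genes. Ccdc3, Fgl2 and Fam180a lie above 1 and Stc1, Pard6b and Stc2 below.

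The DMSO libraries differed too, at low counts. Fgl2 was 4.85 times higher in DMSO replicate 3 than in replicate 1 (95% counting interval 2.75 to 9.05), Fam180a 3.44 times (1.92 to 6.44), and Stc1 40.3 times higher in replicate 3 than in replicate 2 (6.74 to 1638, from 33 reads and 1 read). Pard6b had another order, with DMSO replicate 1 at 3.86 times replicate 2 (2.43 to 6.36). Among the 1431 tested genes with DMSO reads in each library and a mean under 3, the highest DMSO library was a median of 1.69 times the lowest, and 3.996 times at the 95th percentile. Fgl2 and Stc1 were thus more uneven between DMSO libraries than 95% of such genes.

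The nearest pattern to each gene was sought as the smallest Euclidean distance of log2(signal + 1) over the 6 libraries, with predicted genes and the members themselves left aside. Tgfbi, which encodes a matrix protein, was among the 2 nearest of the remaining genes for 4 of the 6: Fam180a (distance 0.85), Stc1 (1.05), Pard6b (1.60) and Fgl2 (2.06). Tgfbi was at 0.787, 0.786 and 1.52 in DMSO and 34.2, 33.1 and 28.4 with SAG. Other near genes were Serpina3g for Fgl2 (2.01), Scube2 for Stc1 (1.04) and Selenbp1 for Pard6b (1.73). Nearest to Ccdc3 were Mir7025 (the row of a microRNA gene) at 1.39 and Sema3g at 1.41. Sema3g, a secreted semaphorin, was at 0.0828, 0.370 and 0.169 in DMSO and 7.47, 7.73 and 8.35 with SAG. Stc2 had near neighbours among genes whose groups overlap, Baiap2l1 (0.32) and Gtf2ird2 (0.35). Among the members, Fgl2 and Fam180a were the closest pair (1.45), nearer to each other than Fgl2 was to any gene outside the 6. These distances describe likeness over 6 libraries that share the group contrast.

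The genes next to the 6 on the chromosome were compared because this measure was not used to choose them. Of the 12 nearest protein-coding genes on either side, 6 passed the filter, and 1 was called higher and 1 lower by limma (Benjamini-Hochberg adjusted p under 0.05), against 12.9% higher and 16.6% lower, 29.6% in all, of the tested genes. Fam185a, 46.6 kb from Fgl2, rose from 3.53 ± 0.456 to 5.99 ± 1.16 (limma, adjusted p = 0.0395), a call lost without any 1 library except SAG replicate 2 (adjusted p from 0.0539 to 0.149). Mtpn, 183 kb from Fam180a and encoding the small ankyrin protein myotrophin, was 1.52-fold lower, at 377 ± 8.39 and 248 ± 26.8 (adjusted p = 0.00252). Gsap, Bod1, Optn and Adnp were not called; Adnp, 79.8 kb from Pard6b, was at 106 ± 1.44 and 105 ± 2.11. Both neighbours of Stc1, Adam28 and Nkx2-6, had 0 reads in all 6 libraries. Slc13a4, a sulfate transporter gene that starts 4.54 kb past the end of Fam180a on the same strand, was under the filter with 2 reads in DMSO and 21 with SAG, a ratio of 25.3 (95% counting interval 6.19 to 223).

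Genes that act with the members were taken from lists fixed by name without the members in them. By the same limma test, 1625 genes (12.9%) rose and 2084 (16.6%) fell among all tested, the shares to set beside each list count below. Of all calls 43.8% were higher, against 66.3% when each library is scaled by its total alone. All 4 core Hedgehog targets rose. Of these Gli1 (log2 fold change 4.52) was the gene with the largest fitted increase of all tested genes. Ptch1 and Hhip, a receptor and a ligand-binding inhibitor, had log2 fold changes of 1.44 and 0.96 (adjusted p = 0.00145 and 0.0209). Hhip passed no more without DMSO replicate 1 (0.0963) or 3 (0.0684), and was under the filter without any 1 SAG library. The study's agonist acts on this pathway, so these genes check the treatment.

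The insulin-like growth factor axis, on which stanniocalcins act through PAPP-A, changed in both directions. Of 11 genes 10 were tested, 5 rose and 3 fell (12.9% and 16.6% of all tested genes did). The median log2 fold change was 0.54 against -0.03 over all tested genes. Pappa, which encodes PAPP-A, was at 340, 363 and 355 in DMSO and 213, 191 and 138 with SAG. It fell 1.95-fold (limma, adjusted p = 0.00141), while Pappa2 was under the filter. Igfbp4, the binding protein that PAPP-A is best known to cut, was at 12.4, 15.8 and 18.3 in DMSO and 53.6, 58.4 and 122 with SAG, a 5.03-fold rise (adjusted p = 6.6e-04). The highest of its SAG values was in replicate 3, as for Fgl2. Igfbp5, another substrate, rose 4.26-fold from 5.40 ± 0.561 to 23.0 ± 4.08 (adjusted p = 8.4e-05). Igfbp6 rose 2.99-fold, to 141 ± 18.0 (adjusted p = 5.0e-05), and Igfbp3 1.99-fold, to 194 ± 21.9 (adjusted p = 2.8e-04). The fifth gene that rose was the growth factor Igf2 (2.39-fold), and Igfbp2 (2.31-fold) and the receptor gene Igf1r (1.30-fold) fell; these and Pappa were named after their values were seen. Igf1 was at 55.8 ± 5.02 and 60.1 ± 9.05 and was not called. Leaving out single libraries gave 5 or 6 higher and 2 or 3 lower.

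The paralogs of Pard6b changed in opposite directions. The 3 mouse Pard6 genes encode adaptors with the same partners, and Pard6g fell while Pard6a rose. Pard6g was at 73.0, 73.7 and 73.7 in DMSO and 31.7, 31.6 and 34.8 with SAG, 2.25-fold lower (limma, adjusted p = 9.1e-05). Pard6a was at 4.10, 3.42 and 4.79 in DMSO and 8.57, 6.89 and 6.29 with SAG, 1.77-fold higher (adjusted p = 0.0222), a call lost without DMSO replicate 1 or 2 or SAG replicate 1 (0.0636 to 0.0990). Per kb of exon, Pard6g made up 87.8% ± 2.34 of the summed Pard6 signal in DMSO and 42.0% ± 7.56 with SAG (SD, n = 3). The share of Pard6b went from 2.43% ± 1.78 to 39.7% ± 7.79 and that of Pard6a from 9.74% ± 1.47 to 18.3% ± 1.95. The sum of the 3 per kb was 26.6 ± 0.593 in DMSO and 25.1 ± 2.84 with SAG, a difference smaller than the SD of the SAG libraries. With each library scaled by its total the order of the sums turned, at 25.3 ± 0.630 and 26.4 ± 3.78. Shares and sums include Pard6b and are descriptions.

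**Figure D3:**
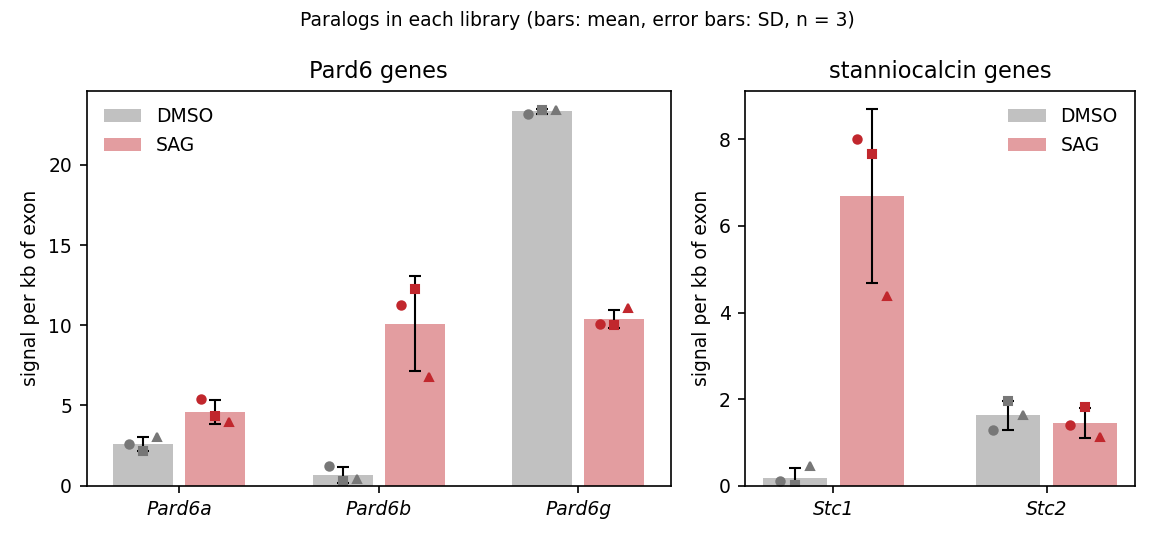
Signal per kb of exon for the Pard6 genes and the stanniocalcin genes, with bars for group means, error bars for SD (n = 3) and symbols for replicates. Pard6g is the main Pard6 transcript in DMSO (87.8% of the sum), and with SAG Pard6b and Pard6g are at similar levels. Stc1 passes Stc2 with SAG.

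Partners of Pard6b changed in both directions. Of 23 polarity genes in the list 22 were in the table and 20 tested; 2 rose and 6 fell, with a median log2 fold change of -0.25, where 12.9% of all tested genes rose and 16.6% fell with a median of -0.03. Scaling by library total gave 4 higher and 4 lower. Prkci, the atypical protein kinase C that binds Pard6 proteins, was 2.24-fold lower, at 57.2 ± 1.08 and 25.6 ± 4.79 (limma, adjusted p = 5.3e-04). Dlg1, a scaffold of the basolateral Scribble module, was 2.16-fold lower, at 197 ± 5.52 and 91.4 ± 6.69 (adjusted p = 8.6e-05), and the GTPase activator Ect2 1.57-fold lower (adjusted p = 0.00751). The remaining genes that fell were Pard6g, Prkcz and Mpp5, and those that rose were Pard6a and Llgl1, with Prkcz, Mpp5 and Llgl1 named after their values were seen. Pard3 was at 52.6 ± 4.46 and 48.4 ± 7.85 and Cdc42 at 512 ± 7.42 and 400 ± 76.3, and neither was called. The number that rose was 0 without DMSO replicate 1 or 2 and 1 without DMSO replicate 3 or SAG replicate 2.

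Relatives of Fgl2 ranged from no reads to a strong signal. Of 21 genes for proteins with a fibrinogen domain 9 passed the filter, 4 rose and 0 fell in limma (0 also at an unadjusted p under 0.05, and in both edgeR and DESeq2), with a median log2 fold change of 0.73. Without the filter 6 rose. Of all tested genes 12.9% rose and 16.6% fell. Fgl1, the closest relative by name, had 1 read in all 6 libraries, and Fga, Fgb, Fcna and Fcnb had 0. Under the filter, Tnn, tenascin N, had 4 reads in DMSO and 40 with SAG, and Angptl7, an angiopoietin-like gene, 2 and 21; these and the 4 genes at 0 were named after their values were seen. Mfap4, a matrix protein of elastic fibres, rose 1.96-fold from 216 ± 8.03 to 424 ± 98.3 (limma, adjusted p = 0.00246), and Angptl2, a secreted angiopoietin-like protein, 1.70-fold from 73.7 ± 6.62 to 125 ± 29.5 (adjusted p = 0.0101; 0.0528 without DMSO replicate 2). Tnxb, tenascin X, rose 1.94-fold (adjusted p = 0.0210; 0.0669 to 0.0882 without DMSO replicate 1 or 2 or SAG replicate 2) and Angptl6 2.25-fold (adjusted p = 0.0425). The call of Angptl6 was lost without any 1 of the libraries (0.0522 to 0.165) and with a replicate block (0.0617). The number that rose was 2 without DMSO replicate 1 or SAG replicate 2 and 1 without DMSO replicate 2.

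Stanniocalcin genes are known to respond to low oxygen and to stress of the endoplasmic reticulum, so genes of both responses were listed. Of 15 hypoxia-inducible genes 13 were tested, 1 rose and 4 fell, with a median log2 fold change of -0.23. The shares over all tested genes were 12.9% higher and 16.6% lower. The glucose transporter gene Slc2a1 was 1.57-fold lower, at 110 ± 5.18 and 69.8 ± 0.617 (limma, adjusted p = 0.00123), Hk2, hexokinase, 1.76-fold lower and Ldha, lactate dehydrogenase, 1.37-fold lower. Ndrg1, a stress-response gene, was the one that rose, 1.78-fold from 19.8 ± 1.47 to 35.3 ± 4.37 (adjusted p = 0.00238), and P4ha1, named after its value was seen, was the other that fell. Without SAG replicate 3 the counts were 2 higher and 6 lower.

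Of 15 ATF4 and unfolded protein response genes 6 rose and 0 fell in limma (1 at an unadjusted p under 0.05, 0 in edgeR and DESeq2). Their median was 0.31, and 12.9% of all tested genes rose and 16.6% fell. Vldlr, a lipoprotein receptor gene, rose 1.66-fold from 37.5 ± 2.01 to 62.4 ± 1.62 (limma, adjusted p = 0.00109). Trib3 rose 3.07-fold, at 13.6, 12.4 and 10.3 in DMSO and 27.0, 31.9 and 52.5 with SAG, and was highest in SAG replicate 3. Sesn2 and Herpud1 rose as well (log2 fold changes of 0.68 and 0.65). The transcript of ATF4 itself was at 231 ± 10.4 and 265 ± 16.6 and was not called. Stc2, which the same pathway is known to induce, had overlapping groups as given above.

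Ccdc3 protein is known to dampen the response of endothelial cells to TNF. Of 14 TNF and NF-kB response genes 10 were tested, 0 rose in limma (0 also at an unadjusted p under 0.05, in edgeR and in DESeq2) and 2 fell, with a median of -0.08. Of all tested genes 12.9% rose and 16.6% fell, with a median of -0.03. Without the filter 1 gene of the list rose and 1 fell. Tnfaip2 was 1.71-fold lower, at 22.4 ± 2.76 and 13.1 ± 1.62 (limma, adjusted p = 0.00628). Tnfaip3, which encodes the inhibitor A20, was 1.79-fold lower, at 11.3 ± 2.96 and 6.29 ± 2.12 (adjusted p = 0.0406), a call lost with no filter, with no trend, under library-total scaling, and when DMSO replicate 1 or 3 or SAG replicate 1 or 2 was left out (0.0506 to 0.167). Ccl2 and Relb, next by p, had adjusted p of 0.117 and 0.379, and Relb passed without SAG replicate 3 (0.0106). Nfkbia, a direct target of NF-kB, was at 28.3 ± 0.676 and 28.7 ± 0.792.

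**Figure D4:**
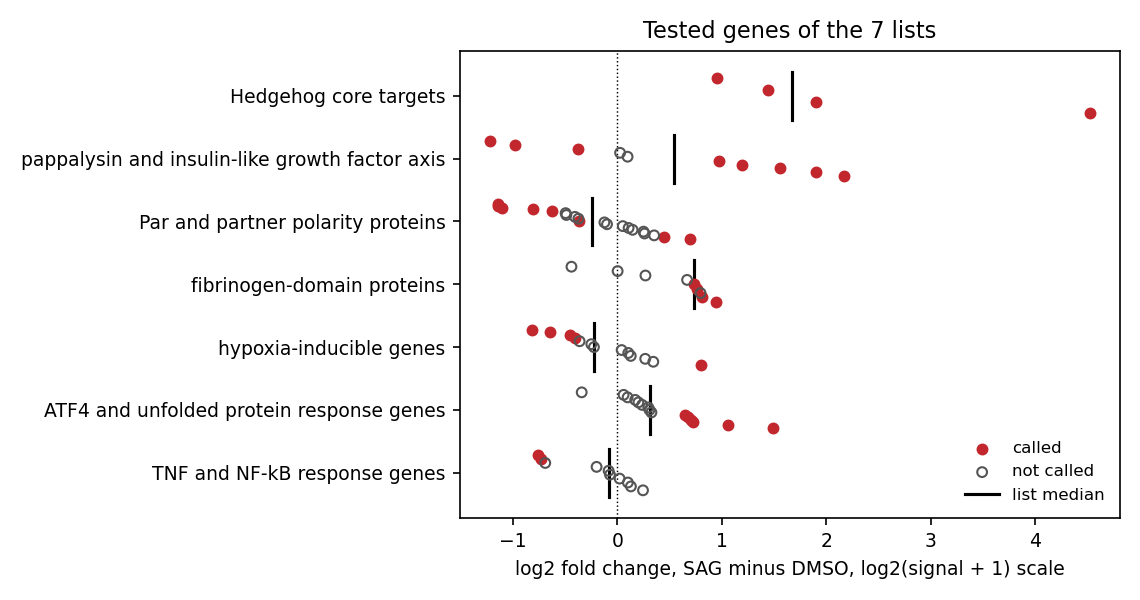
Log2 fold change (SAG minus DMSO, log2(signal + 1) scale) of each tested gene in the 7 lists, with filled points for limma calls at an adjusted p under 0.05, open points for genes not called, and black bars for list medians. All 4 Hedgehog core targets lie to the right of 0, the insulin-like growth factor list has 5 higher and 3 lower calls, and the polarity list has 2 higher and 6 lower.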

How the data were processed

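Reads had been trimmed, aligned and counted with featureCounts 2.0.0, STAR and Trim Galore 0.6.4 on GRCm38 (mm10), and edgeR is named too, per the submitters' processing notes. How strand was set, which annotation was used and what was filtered is not given in the sources used here. Values in the deposited table are a scaled signal near CPM, computed by the authors. All values were whole multiples of 1 step per column within 0.01 of a read, which gave back reads. The 92 spike-in rows, at most 0.0157% of a library's reads, were left out.

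Log2(signal + 1) was fitted with limma 3.58.1 (group only, eBayes with trend) in R 4.3.3 on the 12550 genes whose mean signal was 1 or more, and Benjamini-Hochberg adjusted p under 0.05 was a call. In simulated data with the same dispersion in both groups, this fit recovered 37.4% of 1.5-fold and 90% of 2-fold changes, with 3.05% of calls false. The simulation changed 99 and 100 of 12267 genes at these folds and did not shift the scaling. Of the real tested genes 29.6% were called, so the share of false calls may not carry over. The real SAG libraries were more uneven than the DMSO libraries, with a median highest over lowest value of 1.38 against 1.14. A gene that was not called may therefore still have changed. GENCODE M21 gave positions and exonic lengths. Named genes were the members, list genes with the 4 smallest p, chromosomal neighbours, close paralogs and the 2 nearest patterns, of which some are not reported here. The members and lists were chosen with earlier results of these data known. Alternatives were pseudocounts, filters, scaling, limma settings, a replicate block, edgeR 4.0.16, DESeq2 1.42.0, a threshold of 0.01, thinned DMSO reads and each library left out.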

Additional observations from a re-analysis of the deposited data

Results flagged for a closer look

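Synthetic spike-in RNAs, which the comparisons do not use, had 0 reads in the 3 DMSO libraries and 111, 54 and 1205 reads in SAG replicates 1, 2 and 3. They thus split by group, as library depth did, and the reason was not tested.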

How the results depend on the processing

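For the 6 genes, the log2 fold changes kept their sign in all alternatives tried, and Stc2 stayed within 1 SD of its value. A pseudocount of 5 lowered them to 3.19 for Fgl2, 2.49 for Stc1, 1.82 for Ccdc3, 2.65 for Fam180a and 2.44 for Pard6b, as a larger added constant must, and a pseudocount of 0.5 gave 4.69 for Ccdc3. On recovered reads edgeR and DESeq2 gave 5.32 and 5.23 for Stc1 and 4.68 and 4.68 for Fam180a. For Ccdc3 they gave 10.66 and 10.61, values that depend on the handling of 0 reads and are no bound. Over all genes, scaling by library total gave 2477 higher and 1259 lower and moved the median log2 fold change from -0.03 to 0.10. The threshold of 0.01, a stricter rule, gave 794 and 1043. Leaving out 1 library gave 901 to 2463 higher and 1086 to 3373 lower, with the highest counts without SAG replicate 3, and the cause was not tested. Same-numbered libraries did not deviate together (correlations from -0.0231 to 0.0332). The replicate block gave 1549 higher and 1976 lower, and among the 44 other named genes it ended the call of Angptl6 alone. Over the 781 values of these genes in 18 alternatives, 742 kept their side of the threshold, 37 calls were lost, 2 were gained and none turned direction. The 22 higher and 15 lower calls in the 7 lists stayed within 1.5 times in each alternative. With DMSO reads thinned to the depth of the SAG libraries, the log2 fold change was 3.96 for Stc1 and 3.75 for Ccdc3.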
